A study of Mus musculus with 50 samples.

Results

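The data are Affymetrix gene expression arrays of biopsies from 50 mammary tumours, 1 array per tumour, and these biopsies were taken before drug treatment. The hosts were female backcross mice, with 1 parent a hybrid of C57BL/6J and FVB/NJ and the other an FVB/NJ animal with the MMTV-Erbb2 transgene. A viral promoter active in mammary epithelium (MMTV) drives expression of the receptor tyrosine kinase ErbB2 in this model, and the tumours were spontaneous. The labels put all tumours in 1 group, so the groups were chosen by the measured level of Tfap2b in the same arrays, the gene for the transcription factor AP-2 beta. After the tumours titled mid60, mid79 and mid100 were left out, 26 tumours with Tfap2b at or above 6.5 on the log2 scale are called Tfap2b-high and 21 below 6.5 are called Tfap2b-low, together 47 of 50. Both groups share the transgene, cross, sex, tissue and sampling before treatment, and mouse age and batch were not used here. The series title names doxorubicin as the drug and the sample descriptions name docetaxel. Because Tfap2b itself set the groups, its levels are a description, and only other genes were tested. The groups were not made by an intervention, so a difference between them is an association over tumours.

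AP-2 proteins are transcription factors that bind GC-rich DNA as dimers through a shared helix-span-helix domain, and the family members recognise closely similar sites. AP-2 beta is known for its roles in neural crest, limb, kidney and ductus arteriosus development, while AP-2 alpha and AP-2 gamma (Tfap2a and Tfap2c) are the members best known in mammary epithelium. AP-2 factors were first tied to ERBB2 in breast cancer cells because they bind the promoter of the human ERBB2 gene.

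Tfap2b levels fell into a high and a low range. In the Tfap2b-high tumours its log2 level had a lowest value of 7.25 in mid9, a median of 9.07 and a highest value of 10.13 in mid43. In the Tfap2b-low tumours the lowest value was 3.57 in mid145, the median 3.97 and the highest 5.08 in mid186. The means were 8.98 ± 0.68 (SD, n = 26) and 4.06 ± 0.37 (SD, n = 21), 4.92 log2 units apart. No tumour lay between mid186, just below the threshold, and mid9, just above it, a gap of 2.17. The next largest gap between neighbouring tumours was 0.55, between mid9 and mid26. The tumours left out were all low, at 3.87 in mid60, 3.96 in mid79 and 4.39 in mid100. The mean of the Tfap2b-low tumours lay under 4.39, the lowest mean level at which a gene was tested, so their values are near the bottom of the scale.

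**Figure D1:**
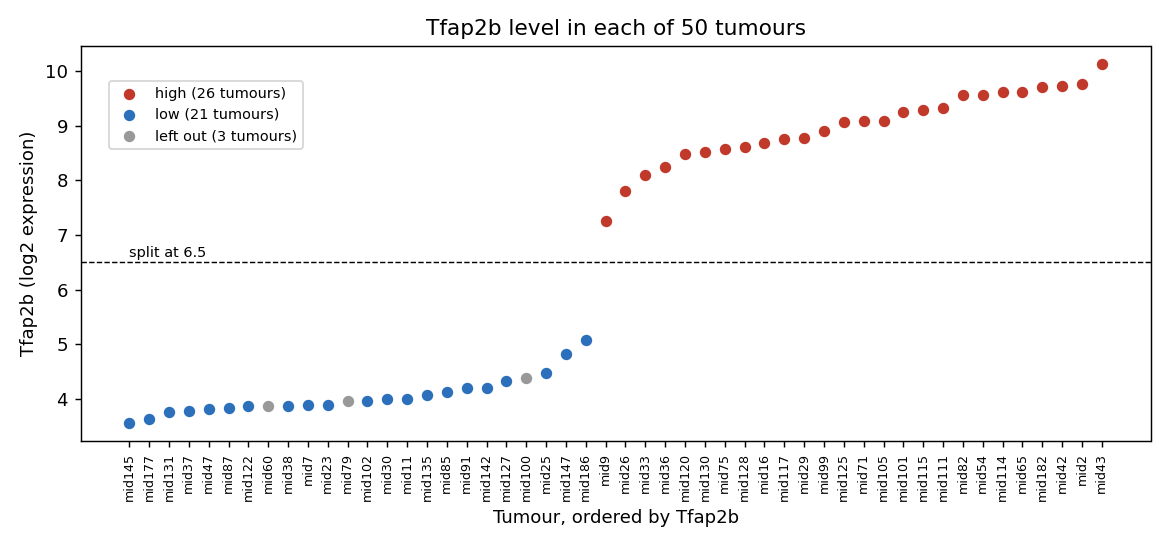
Tfap2b in log2 units (vertical axis) in each of the 50 tumours, ordered from lowest to highest, with the 26 Tfap2b-high tumours in red, the 21 Tfap2b-low tumours in blue and the 3 tumours left out in grey. The dashed line is the threshold of 6.5, and no tumour lies between 5.08 and 7.25.

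The sequences shown are the 250 bases before the start of Tfap2b, the gene that divides the tumours, of Ctsf, the gene with the largest test statistic, and of Col6a5, a matrix collagen gene that shows what a match to the AP-2 motif looks like. They are read 5′ to 3′ on the gene's strand from RefSeq on the build GRCm38.p6. Capitals mark matches to the AP-2 motif GCCNNNGGC, which reads the same on both strands. Col6a5 was the first gene, by statistic, with a single promoter window and a match before the start among the 15 genes with the largest negative statistics, and none of the 15 with the largest positive statistics qualified. The motif search was added after the values were seen.
Tfap2b, chr1:19211804-19212053, plus strand: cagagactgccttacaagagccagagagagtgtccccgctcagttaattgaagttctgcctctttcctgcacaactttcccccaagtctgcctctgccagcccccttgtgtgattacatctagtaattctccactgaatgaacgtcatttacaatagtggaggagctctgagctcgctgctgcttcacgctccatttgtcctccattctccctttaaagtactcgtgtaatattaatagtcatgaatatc
Ctsf, chr19:4854915-4855164, plus strand: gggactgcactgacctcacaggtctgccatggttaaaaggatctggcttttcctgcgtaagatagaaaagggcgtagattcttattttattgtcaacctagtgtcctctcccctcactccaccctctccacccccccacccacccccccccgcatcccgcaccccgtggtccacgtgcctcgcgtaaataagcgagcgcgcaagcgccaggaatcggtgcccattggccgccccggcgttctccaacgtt
Col6a5, chr9:105960644-105960893, minus strand: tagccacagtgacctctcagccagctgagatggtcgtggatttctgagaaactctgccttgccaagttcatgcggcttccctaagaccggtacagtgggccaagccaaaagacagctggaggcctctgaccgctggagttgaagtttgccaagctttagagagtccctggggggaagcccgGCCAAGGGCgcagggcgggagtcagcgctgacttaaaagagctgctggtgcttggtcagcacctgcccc
The upstream stretch of Tfap2b was 46.4% G and C with 5 CpG, and that of Ctsf 59.2% with 17 CpG. Neither held the motif.

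No gene other than Tfap2b passed the test between Tfap2b-high and Tfap2b-low tumours. By limma with Benjamini-Hochberg adjustment 0 of 16634 tested genes were called at an adjusted p under 0.05, a share of 0%, and the smallest adjusted p was 0.999. At an unadjusted p under 0.05 there were 545 genes (3.28%), of which 325 (1.95%) were higher and 220 (1.32%) lower in Tfap2b-high tumours. On ranks in place of log2 values the counts were 0 and 639. In no tested gene did all Tfap2b-high tumours lie on one side of all Tfap2b-low tumours. The differences were small, with a median of -0.0024 log2, 25th and 75th percentiles of -0.05 and 0.04, and 5 genes differing by at least 1 log2 unit. The 95% interval of the difference, not adjusted for the number of genes, had a median half-width of 0.13 log2 and lay within 1 log2 unit of 0 for 16526 genes (99.35%) and within 0.5 for 15837 (95.2%). Nothing in the labels says whether biopsies came from separate mice, so the tests measure the spread between these samples.

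No other AP-2 gene passed the test. Tfap2a ran from 8.19 through a median of 8.76 to 9.12 log2 in Tfap2b-high tumours and from 8.37 through 8.66 to 9.09 in Tfap2b-low tumours. The groups overlapped over nearly their whole range, with a difference, high minus low, of 0.04 ± 0.07 (SE, 95% interval -0.10 to 0.17). Tfap2c, the gene for AP-2 gamma, ran from 8.93 through 9.57 to 9.99 and from 9.14 through 9.63 to 9.98. Its difference was -0.06 ± 0.07 (interval -0.20 to 0.08), and with mid60, mid79 and mid100 included as Tfap2b-low it was 0.25, with Tfap2a at 0.26 and neither called. Tfap2e, for AP-2 epsilon, differed by 0.01 ± 0.04 (interval -0.07 to 0.10). Tfap2d, the gene for AP-2 delta that lies next to Tfap2b, was under the limit for testing, at 4.12 ± 0.11 (SD, n = 26) and 4.10 ± 0.14 (SD, n = 21). For all tested family members the adjusted p by limma was 0.999.

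Of the proteins that work with or against AP-2 factors, 0 of 10 tested were called, 6 were higher and 4 lower, and their median difference was 0.01 log2, against -0.0024 over all genes. Cited2 and Cited4 code for coactivators of AP-2. Cited2 averaged 11.27 ± 0.27 (SD, n = 26) and 11.28 ± 0.32 (SD, n = 21), while Cited4 varied more, at 9.03 ± 0.94 and 9.25 ± 0.75, with an interval of the difference of -0.71 to 0.27. Kctd1, which codes for a BTB-domain protein that binds AP-2 alpha and represses its activity, had the largest statistic of the list. Its level ran from 7.67 through a median of 8.40 to 9.36 in Tfap2b-high and from 7.45 through 8.06 to 8.84 in Tfap2b-low tumours, a difference of 0.27 ± 0.12 (SE, unadjusted p = 0.0224, adjusted p = 0.999 by limma). The groups overlapped over most of their range. Wwox, which holds AP-2 gamma in the cytoplasm, differed by 0.05 ± 0.06.

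Genes reported elsewhere as AP-2 targets had small differences. Of 21 tested, 0 were called and 0 had an unadjusted p under 0.05, with 7 higher, 14 lower and a median difference of -0.03 log2. Erbb2 averaged 11.69 ± 0.18 log2 in Tfap2b-high tumours (SD, n = 26) and 11.68 ± 0.21 in Tfap2b-low tumours (SD, n = 21), a difference of 0.01 ± 0.06 (SE, 95% interval -0.10 to 0.12). Whether its probes detect transgene or endogenous transcripts was not tested. Kit, a receptor tyrosine kinase of luminal progenitors, differed by -0.09 (interval -0.31 to 0.13). Cdkn1a, the p21 inhibitor of cyclin-dependent kinases, differed by 0.07 (interval -0.37 to 0.50), Igfbp5, an IGF-binding protein, by 0.06 (interval -0.12 to 0.25), and Esr1, the oestrogen receptor, by -0.08 (interval -0.36 to 0.19). The largest statistic was that of Mmp2, a matrix metalloprotease, at -0.53 ± 0.29. Genes tied to AP-2 beta in distal kidney tubule and neural crest were mostly near the bottom of the scale. Of 12 tested, 0 were called, with a median difference of 0.01, and Trpm6, a magnesium channel, had the largest statistic at 0.15 ± 0.06.

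Of 14 tested receptors and ligands of the ERBB family, 0 were called, and the median difference was 0.02 log2. Erbb3, the kinase-impaired partner of ErbB2, differed by 0.02 (95% interval -0.11 to 0.15) and Egfr by 0.05 (interval -0.14 to 0.24). Erbb4 varied widely within both groups, at 7.47 ± 1.16 (SD, n = 26) and 7.36 ± 1.11 (SD, n = 21), so its interval was wide, -0.54 to 0.76. Nrg3, a neuregulin, had the largest statistic, with a difference of 0.07 ± 0.03 (SE). Of 12 genes of MAPK feedback, which dampen signalling below the receptors, 0 were called, and their median of -0.03 became 0.07 with all 50 arrays. Spry2, a sprouty inhibitor, differed by 0.15 ± 0.07 and Dusp4, a phosphatase of MAP kinases, by -0.19 ± 0.10.

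Both groups had high levels of some markers of luminal mammary epithelium, but not of all. Krt19, a keratin gene of the list, averaged 4.71 log2 in Tfap2b-high and 4.73 in Tfap2b-low tumours, near the bottom of the scale. Epcam, an adhesion molecule of epithelium, averaged 11.50 ± 0.16 log2 in Tfap2b-high (SD, n = 26) and 11.53 ± 0.11 in Tfap2b-low tumours (SD, n = 21). Of 18 luminal genes 0 were called, 14 were lower, and the median difference was -0.04. With all 50 arrays that direction turned, with 4 of 18 lower and a median of 0.09. The keratin genes Krt8 and Krt18 differed by -0.09 ± 0.06 and -0.13 ± 0.08 (SE). Gata3, a luminal transcription factor, differed by -0.13 ± 0.10 and Elf5, a factor of alveolar cells, by 0.01 ± 0.10. Of 11 basal and myoepithelial genes 0 were called, with a median difference of 0.03. The sign of that median turned with all 50 arrays (-0.09, 9 of 11 lower), with a proliferation or array correlation covariate (-0.02 each) and without mid9 (-0.03). Trp63, the basal factor p63, differed by 0.20 ± 0.09. Its medians, 4.87 in Tfap2b-high and 4.78 in Tfap2b-low tumours, were near the bottom of the scale, and it was highest, at 6.6, in mid54, a Tfap2b-high tumour. Of 8 hormone-sensing genes 0 were called, with Prom1, a membrane glycoprotein, at -0.52 ± 0.25 and Wnt4, a ligand made in response to progesterone, at 0.11 ± 0.05.

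Milk genes were lower on average in Tfap2b-high tumours without passing the test. Of 14 milk protein and milk fat genes 0 were called, 13 were lower and the median difference was -0.25 log2, beside 51.6% of all tested genes that were lower. As list members move together over tumours, these 13 are not independent. At an unadjusted p under 0.05 by limma 2 were lower. The median ran from -0.33 without mid130 to -0.18 without mid111. Csn1s2a, a casein gene, ran from 4.90 in mid99 through a median of 11.12 to 13.04 in Tfap2b-high and from 9.35 through 11.77 to 13.21 in Tfap2b-low tumours. The groups overlapped except for a tail of low values among Tfap2b-high tumours, and the difference was -1.20 ± 0.43 (SE, 95% interval -2.07 to -0.33, unadjusted p = 0.00763, adjusted p = 0.999 by limma). Btn1a1, the butyrophilin of milk fat globules, ran from 5.58 through 7.54 to 12 and from 6.56 through 9.45 to 11.75, a difference of -1.22 ± 0.46. Csn2, beta-casein, differed by -0.74 ± 0.43, Lalba, alpha-lactalbumin, by -0.24 ± 0.23, and Wap, whey acidic protein, by -0.0019 ± 0.12. The mean level of the whole list was 8.86 ± 0.77 in Tfap2b-high and 9.27 ± 0.62 in Tfap2b-low tumours. The ranges were 7.04 to 10.43 and 8.07 to 10.64.

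**Figure D2:**
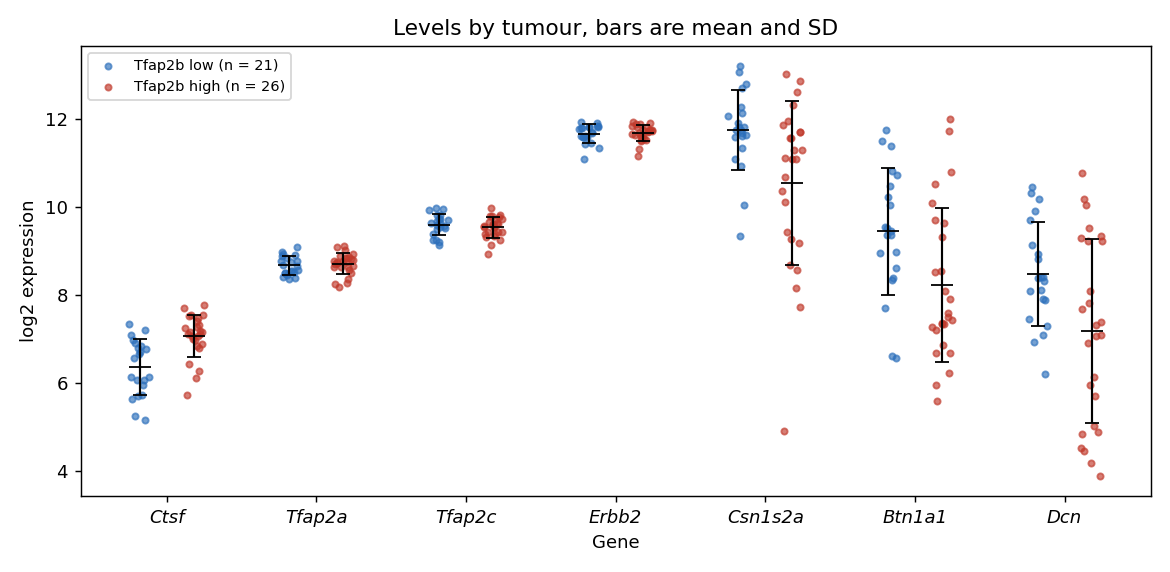
Log2 levels (vertical axis) of 7 genes in the 21 Tfap2b-low (blue) and 26 Tfap2b-high (red) tumours, 1 point per tumour, with bars for the mean and SD. Erbb2, Tfap2a and Tfap2c lie in narrow, overlapping bands, the means of Ctsf differ by 0.70 (not called), and Csn1s2a, Btn1a1 and Dcn have wide ranges in both groups.

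Ctsf, the gene for cathepsin F, a lysosomal cysteine protease, had the largest test statistic of all genes. Its log2 level ran from 5.73 in mid9 through a median of 7.14 to 7.77 in mid125 among Tfap2b-high tumours and from 5.14 in mid177 through 6.56 to 7.34 in mid38 among Tfap2b-low tumours. The groups overlapped, and 22 of 26 Tfap2b-high tumours lay above the median of the Tfap2b-low ones. The difference was 0.70 ± 0.16 (SE, 95% interval 0.38 to 1.03, unadjusted p = 6.21e-05, adjusted p = 0.999 by limma). It was not called under any alternative, with adjusted p values from 0.0691, when mid9 counted as Tfap2b-low, to 0.999, and without mid9 the difference was 0.76 with an adjusted p of 0.156. The other 14 genes with the largest positive statistics had smaller differences, between 0.11 and 0.33. Among them were the zinc finger genes Zfp949 (0.26 ± 0.08, SE), Zbtb45 (0.18 ± 0.05), Zfp58 (0.17 ± 0.05) and Zfp27 (0.14 ± 0.04), and Elp3, a subunit of the Elongator complex (0.14 ± 0.04). The 15 genes with the largest negative statistics included Prkar2b, a regulatory subunit of protein kinase A, at -0.47 ± 0.14, Sdhb, the iron-sulfur subunit of succinate dehydrogenase, at -0.25 ± 0.09, and Nubp1, a factor of iron-sulfur cluster assembly, at -0.19 ± 0.06. All had an adjusted p of 0.999.

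The largest differences in size belonged to genes that vary widely in both groups. They were named after their values were seen. Tbx15, a T-box transcription factor, was highest, at 0.92 ± 0.35 log2 (SE, 95% interval 0.22 to 1.62), with values from 4.63 through a median of 6.54 to 9.33 in Tfap2b-high and from 4.82 through 5.52 to 8.18 in Tfap2b-low tumours. Dsp, the desmosome protein desmoplakin, followed at 0.78 ± 0.29 (interval 0.20 to 1.37), with a long low tail among Tfap2b-low tumours, which ran from 5.42 to 9.88 against 7.17 to 10.38. The 5 genes differing by at least 1 log2 unit were all lower in Tfap2b-high tumours. Beside Csn1s2a and Btn1a1 they were Dcn, the matrix proteoglycan decorin, at -1.31 ± 0.49, Dpt, dermatopontin of the matrix, at -1.08 ± 0.42, and Ifi205, an interferon-inducible gene, at -1.04 ± 0.41.

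Lists of matrix, macrophage, interferon, MHC class I and cycling genes leaned lower in Tfap2b-high tumours, again with no member called. Of 22 fibroblast and matrix genes 21 were lower, with a median difference of -0.24 log2. Their mean level was 7.67 ± 0.92 in Tfap2b-high tumours (SD, n = 26, range 6.45 to 10.23) and 8.04 ± 0.61 in Tfap2b-low tumours (SD, n = 21, range 7.05 to 9.18). The difference between those means is smaller than either SD. In a biopsy, fewer cells of a type and less RNA per cell cannot be told apart. With all 50 arrays all 22 were lower and the median was -0.47.

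All 18 macrophage genes were lower (median -0.12), as were all 18 interferon response genes (-0.30) and all 9 genes of MHC class I presentation (-0.27). At an unadjusted p under 0.05 these lists had 0, 0 and 1 members, beside 3.28% of all tested genes. B2m, the light chain of MHC class I, differed by -0.28 ± 0.14 (SE), H2-K1, a heavy chain, by -0.39 ± 0.22, and the antiviral synthetase gene Oas2 by -0.50 ± 0.35. Of 13 T and NK cell genes 9 were lower (median -0.05), with Cd8a, a marker of cytotoxic T cells, at -0.19 ± 0.08. Cd8a averaged 4.67 in Tfap2b-high and 4.86 in Tfap2b-low tumours, near the bottom of the scale. Of 8 B cell genes 7 were lower (median -0.06), with Ighm, the heavy chain of IgM, at -0.41 ± 0.16. Ighm was highest, at 10.2, in mid85, a Tfap2b-low tumour. Its medians were closer, at 7.525 in Tfap2b-high and 7.68 in Tfap2b-low tumours. The macrophage median was -0.24 with all 50 arrays, -0.18 without mid9 and -0.08 without mid147. Neutrophil genes did not share this direction, with 2 of 3 tested higher, 0 called and a median of 0.015. Cxcr2, a chemokine receptor, differed by 0.05 ± 0.11 (SE) and Mmp9, a matrix metalloprotease, by 0.015 ± 0.14. The neutrophil median was -0.14 with all 50 arrays and -0.09 without mid9. Members of one list move together over tumours, so a shared sign is not independent evidence from each gene.

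All 32 tested proliferation genes were lower, with a median difference of -0.17 log2. At an unadjusted p under 0.05 there were 5, beside 1.32% of all tested genes that were lower at that level. As list members move together, these 5 are not independent. Mki67, a marker of cycling cells, averaged 9.92 ± 0.51 in Tfap2b-high (SD, n = 26) and 10.15 ± 0.31 in Tfap2b-low tumours (SD, n = 21). Pcna, the sliding clamp of DNA replication, differed by -0.21 ± 0.09 (SE), and Top2a, the topoisomerase that doxorubicin poisons, by -0.17 ± 0.14. With all 50 arrays 25 of the 32 were lower and the median was -0.09. Of 15 genes of G1 cyclins, their kinases and inhibitors 8 were higher, and Cdkn2a, which codes for p16 and p19Arf, differed by 0.23 ± 0.09. Skeletal muscle was the list with the highest median, 0.21, with all 13 tested genes higher. That value rested on mid71, a Tfap2b-high tumour with a mean muscle level of 9.86, and without mid71 it was 0.02.

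**Figure D3:**
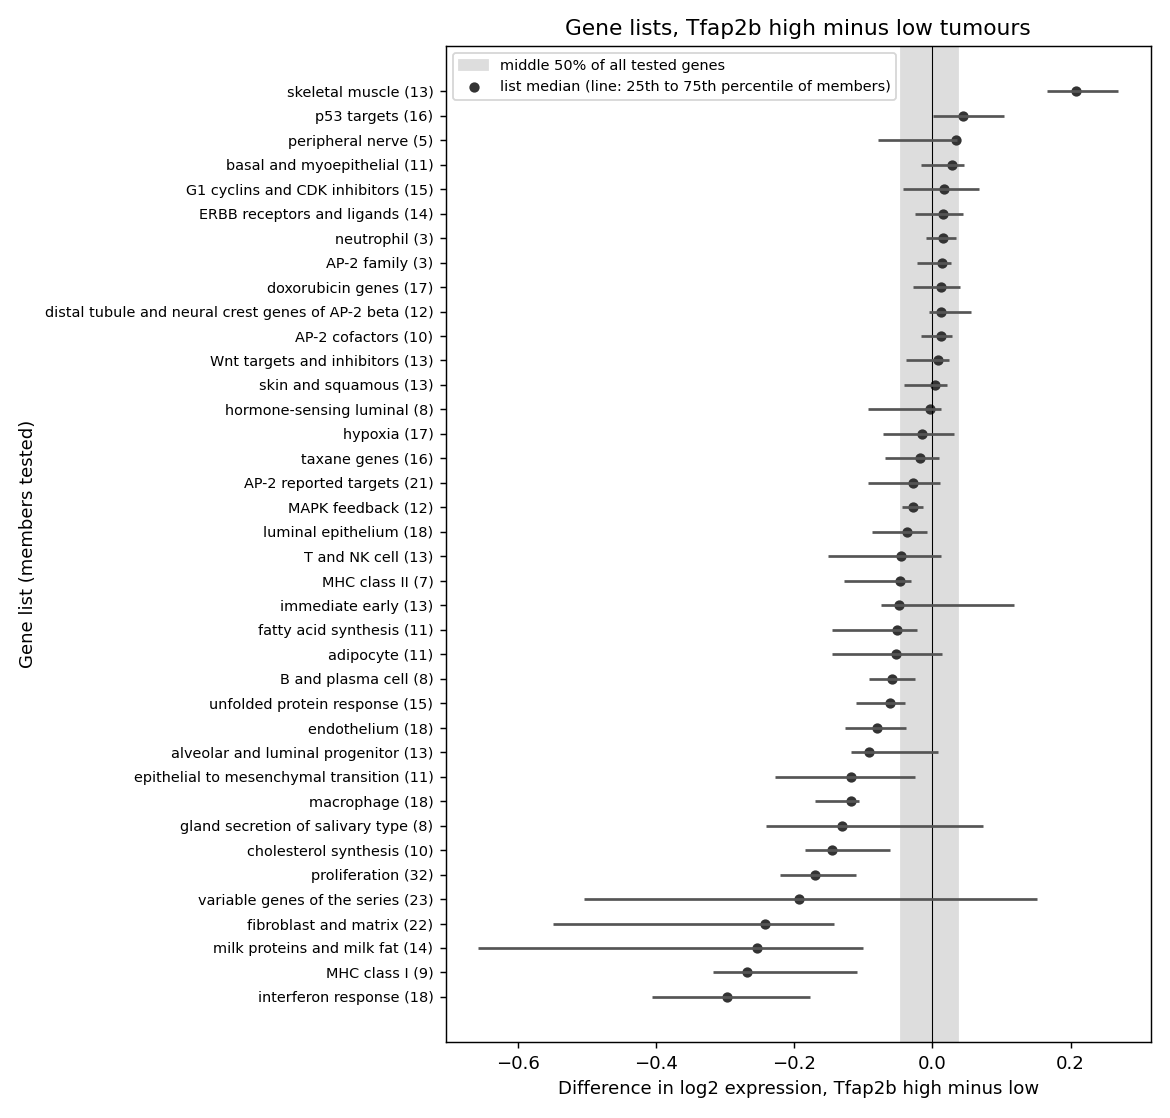
Median difference in log2 level, Tfap2b-high minus Tfap2b-low (horizontal axis), for each of 38 gene lists (vertical axis, with the number of members tested), with lines from the 25th to the 75th percentile of the members. The grey band runs between the 25th and 75th percentiles of all tested genes, -0.05 to 0.04, and list medians run from -0.30 for interferon response to 0.21 for skeletal muscle, with 0 members called.

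The remaining lists lay within that range. Lists for both drugs were near 0, with medians of 0.01 for 17 doxorubicin genes and -0.02 for 16 taxane genes, and each changed sign with a proliferation covariate (-0.0046 and 0.0011). Abcg2, an efflux pump, differed by -0.35 ± 0.22 log2 (SE) and Tubb6, a beta-tubulin, by -0.22 ± 0.14. Of 10 genes of cholesterol synthesis 9 were lower (median -0.15), with Insig1, a sterol sensor, at -0.31 ± 0.15. Of 16 p53 targets 12 were higher (median 0.04), although Bbc3, the apoptosis gene Puma, had the largest statistic at -0.14 ± 0.05. Of 13 Wnt targets and inhibitors 7 were higher (median 0.01, or -0.08 with all 50 arrays), with Axin2, a feedback target, at 0.17 ± 0.08. Hypoxia genes had a median of -0.02 over 17 members.

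Genes beside Tfap2b on chromosome 1 did not pass the test. The mice differ in inherited chromosome segments, so the 10 tested genes on each side were examined in their order on GRCm38.p6. None of the 20 was called by limma, and their differences ran from -0.31 to 0.17 log2. The nearest tested gene on one side, Jph1, a junctophilin, differed by 0.16 ± 0.07 (SE) and on the other Mir133b, a muscle microRNA, by -0.0090 ± 0.05. Jph1 was highest, at 6.97, in mid71, the tumour with a mean muscle level of 9.86. Its medians were 5.78 in Tfap2b-high and 5.60 in Tfap2b-low tumours. Stau2, an RNA-binding protein, differed by 0.15 ± 0.06, Ly96, a partner of the receptor TLR4, by -0.31 ± 0.15 and Tmem14a by 0.17 ± 0.08. Of the 20 genes, these and Jph1 had an unadjusted p under 0.05 by limma, each with an adjusted p of 0.999. The share of all tested genes at that unadjusted level was 3.28%. Closer genes were under the limit for testing, among them Pkhd1, the fibrocystin gene, at 4.14 ± 0.08 (SD, n = 26) and 4.17 ± 0.08 (SD, n = 21). None of these neighbours showed a step like that of Tfap2b. Mir133b (means 4.51 and 4.52) and Il17a (4.54 and 4.60) were also near the bottom of the scale. Levels this low in both groups cannot show whether the region differed.

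**Figure D4:**
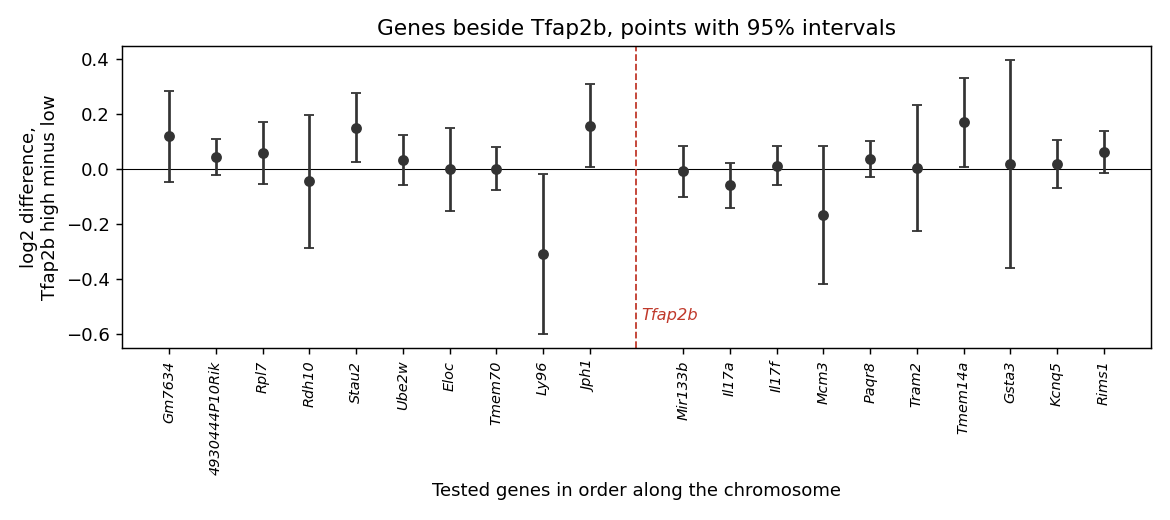
Difference in log2 level, Tfap2b-high minus Tfap2b-low (vertical axis), of the 10 tested genes on each side of Tfap2b in chromosome order (horizontal axis), with 95% intervals. The points lie between -0.31 for Ly96 and 0.17 for Tmem14a, against 4.92 for Tfap2b itself, which is off the scale.

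By chromosome, the share of genes at an unadjusted p under 0.05 was 2.65% on chromosome 1, with 11 higher and 14 lower of 945, beside 3.28% over all genes. It was lowest on chromosome 8, at 2.08%, and highest on chromosome 19, at 6.28% of 557 genes, with 31 higher and 4 lower, and chromosome 14, at 5.19% of 578 genes, with 29 higher and 1 lower. Other chromosomes also leaned, such as X, with 19 higher and 1 lower, and chromosome 2, with 12 higher and 37 lower. Genes of one chromosome can share an inherited segment, so these counts are not of independent genes. Ctsf lies on chromosome 19. The median differences of chromosomes 19 and 14 were 0.02 log2 each, and no gene on them was called. Genes with separate levels between tumours elsewhere in the genome, chosen after their values were seen, were not called either. Sp100, also on chromosome 1, differed by -0.27 (95% interval -0.75 to 0.22), D17H6S56E-5 by -0.20 (interval -1.0 to 0.61) and 2610507I01Rik by -0.36 (interval -0.98 to 0.27). Apobec3, a cytidine deaminase, differed by 0.32 (interval 0.03 to 0.62, adjusted p = 0.999 by limma).

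Variation of Tfap2b within each group was also set against all genes. Among the 26 Tfap2b-high tumours limma called 1 of 16634 genes (0.00601%) on the slope per log2 unit of Tfap2b, with 1261 (7.58%) at an unadjusted p under 0.05, 616 (3.70%) rising and 645 (3.88%) falling. The called gene was Gadd45g, a stress-induced growth arrest gene, which fell by 0.72 ± 0.12 (SE, adjusted p = 0.0297) per unit. The call was lost in 7 of 26 fits that left out 1 tumour, with an adjusted p of 0.397 without mid9, which had the lowest Tfap2b and the highest Gadd45g of the group, and on ranks the adjusted p was 0.826. Between the groups Gadd45g differed by 0.03 (95% interval -0.31 to 0.37). Among the 21 Tfap2b-low tumours, where Tfap2b spans only 3.57 to 5.08, 2 genes (0.0120%) were called, with 1114 (6.70%) at an unadjusted p under 0.05, 638 (3.84%) rising and 476 (2.86%) falling. They were Saa2, a serum amyloid gene, with a slope of 2.24 ± 0.36 (adjusted p = 0.0432 by limma), and Cd22, a B cell receptor, with 0.47 ± 0.08 (adjusted p = 0.0432). Their calls were lost in 11 and 13 of 21 such fits, with the highest adjusted p, 0.788 and 0.29, without mid186 and mid147, the tumours with the highest Tfap2b of the group. Ctsf had a slope of 0.27 among Tfap2b-high tumours (adjusted p = 0.638).

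Other widely varying genes moved with many genes over the same 47 tumours, in a comparison chosen after the count of 0 for Tfap2b was seen. With Tfap2b as a number in place of groups, limma called 0 of 16634 genes (0%), with 701 at an unadjusted p under 0.05. The SD of Tfap2b, 2.53 log2, was the largest among the predictor genes compared here. The same fit was made for 23 other genes chosen earlier for their spread in these samples or their separate levels, and it called up to 3492 genes, with a median of 1032. Trpm3, a cation channel with an SD of 1.67, had 3492 (21%), and Cnmd, chondromodulin, 3320 (20%). Scgb1b27, a secretoglobin with an SD of 2.50 close to that of Tfap2b, had 635 (3.82%), Emb, embigin, 1032 (6.2%), and Dcn 932 (5.6%). Gabra4, a GABA receptor subunit, had the fewest of the 23, at 0.884%. None of these fits called Tfap2b, for which the lowest adjusted p was 0.0682, on Btn1a1. The counts describe these fits, and the difference between them was not tested.

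**Figure D5:**
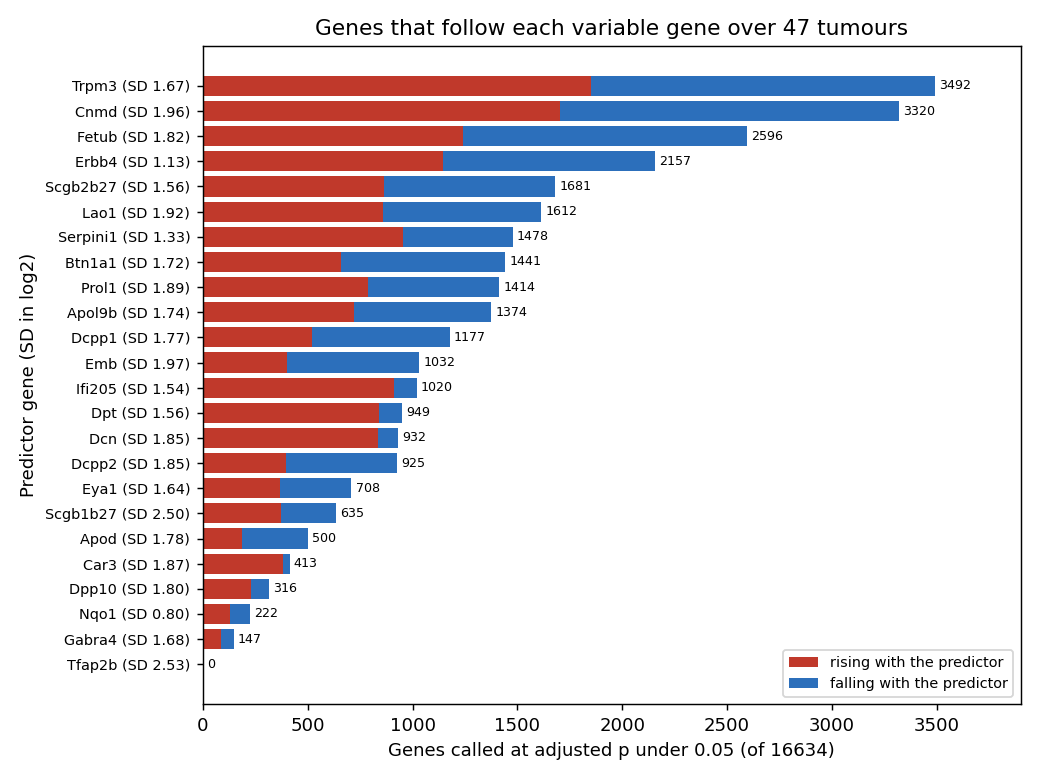
Number of genes called at an adjusted p under 0.05 of 16634 tested (horizontal axis) when each gene named on the vertical axis, with its SD in log2 units, is used as a predictor over the 47 tumours. Red parts are genes that rise and blue parts genes that fall with the predictor, and the bars run from 0 for Tfap2b to 3492 for Trpm3.

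Genes with and without an AP-2 motif in the promoter had like differences. GCCNNNGGC was found in 16.6% of 32851 RefSeq windows of 300 bases, from 250 before to 50 after a start. Of the tested genes 12862 matched a window by symbol, and 26.5% of them had the motif in at least 1 window. The 3408 genes with it had a median difference of -0.0030 log2 and 3.35% at an unadjusted p under 0.05, and the 9454 without it -0.0029 and 3.22%. In both sets 0 genes were called by limma. Among the genes with the largest statistics, 3 of 12 matched with a positive one and 3 of 12 with a negative one had the motif. Genes of chromosome 18 were not considered for the printed example. A match is a run of letters and not a site known to be bound.

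Array quality was close in both groups once mid60, mid79 and mid100 were left out. These tumours, all with low Tfap2b, had the lowest mean correlations with the other arrays, at 0.9237, 0.9011 and 0.9454. Of the arrays kept, mid9, a Tfap2b-high tumour, was lowest at 0.9619. Each array's correlation with the rest averaged 0.975 ± 0.0038 in Tfap2b-high (SD, n = 26) and 0.976 ± 0.0023 in Tfap2b-low tumours (SD, n = 21), a difference of -0.00164 (two-sided permutation p = 0.0869, 100000 permutations). With this correlation as a covariate 0 genes were called and 1113 had an unadjusted p under 0.05 by limma, against 545 without the covariate.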

How the data were processed

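RNA was measured in 50 biopsies. The authors deposited log2 expression values made with RMA, per the submitters' processing notes, which also name the build mm8 without its role. RMA forces all arrays to 1 distribution, which hides a shift of the whole transcriptome. Of 34472 probe sets, 23521 name 1 gene in the platform annotation, 1814 several and 9137 none, and 23328 matched the gene table (RefSeq, GRCm38.p6) by Entrez identifier. For 22180 genes the probe set with the highest mean over 50 arrays was used, and those averaging below the 25th percentile over genes (4.39 log2) were not tested. The number of arrays limits the precision.

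Tumours were split at 6.5 and compared with limma 3.58.1 (lmFit, eBayes with trend, no covariates) in R 4.3.3, with Benjamini-Hochberg adjustment over all tested genes and calls under 0.05. Intervals are at 95%. Lists carry counts and medians only. The members and lists were chosen with earlier results of these data known. Named genes were, since none was called, the 15 with the largest positive and 15 with the largest negative statistics, the AP-2 family, the 3 members of each list with the largest statistics, the 5 with the largest slope statistics among Tfap2b-high tumours and the 10 genes on each side of Tfap2b; other names, such as list members given for their role, were chosen after their values were seen. Alternatives changed the filter, probe set, normalization, scale, weights, variance model, arrays, split, predictor and covariates, or left out 1 tumour. The fits were tested on simulated data. Python 3.11.15, numpy 2.4.6, pandas 2.3.3 and matplotlib 3.10.9 were used.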

Additional observations from a re-analysis of the deposited data

How the results depend on the processing

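The count of 0 genes between Tfap2b-high and Tfap2b-low tumours held under all 18 alternatives run with limma, 17 planned and 1 (all 34471 other probe sets, named or not) chosen after seeing the data. The smallest adjusted p ran from 0.0691 to 1 and the count at an unadjusted p under 0.05 from 354 to 1263. In 47 fits that left out 1 tumour each the count was 0 throughout (unadjusted 437 to 803). A split at 5.5 gave the same groups as 6.5, and leaving out tumours between 5.5 and 7.5 removed only mid9. Of 161 named genes 0 were called under any alternative. With all 50 arrays 21 of them changed sign, the most of any setting. The count of genes that follow Tfap2b among Tfap2b-high tumours, 1, was 2 with a filter at the 50th percentile, 2 with another quantile normalization and 0 on ranks, and 0 to 4 when 1 tumour was left out. Among Tfap2b-low tumours the count, 2, was 0 without a filter, 0 with a filter at the 50th percentile, 0 on ranks, 0 with all 50 arrays, and 0 to 5 when 1 tumour was left out. The cause was not tested. No paired analysis was possible because all tumours form 1 labelled group without shared replicate numbers.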
